A study of Mus musculus with 8 samples.

Results

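Neuronal calcium-binding protein genes were examined in glutamatergic neurons of the mouse ventral pallidum (VP), a basal forebrain nucleus of the reward system. They were chosen by gene symbol, and all 10 members have 1 entry each among the 14353 genes of the deposited table. Calb1, Calb2 and Pvalb encode the calcium buffers calbindin, calretinin and parvalbumin. Hpca, Hpcal1, Vsnl1, Ncald and Ncs1 encode calcium sensors of the neuronal calcium sensor (NCS) family, and Necab1 and Necab2 encode proteins with calcium-binding sites near their N terminus. The comparison asks how the level of each gene in ribosome-bound mRNA of VP glutamatergic (VPGlu) neurons stood against its level in the tissue, and how calretinin stood against the other buffers and sensors.

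These proteins bind calcium through EF-hands, helix-loop-helix folds whose loop holds the ion. Buffers take up calcium that enters during action potentials and so limit how far and how long it spreads, and their distribution has long been used to tell classes of neurons apart. Sensors change shape when they bind calcium and pass the signal to channels, receptors, kinases or membrane traffic. In the forebrain, parvalbumin is known from fast-spiking GABAergic neurons, and calbindin and hippocalcin are abundant in projection neurons of the striatum.

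The mice carried vGluT2-Cre in the homozygous state and 1 RiboTag allele of Rpl22, and received no treatment. Cre is driven by Slc17a6 and its effect on the tagged allele is permanent, so the HA tag marks the ribosomes of cells that express vGluT2 or did so earlier. The labels list 38 mice (15 male and 23 female) in 4 pools of 7 to 11 mice. Pool VP1.6 was aged 9 to 12 weeks, and pools VP2.2, VP2.6 plus VP2.11 were aged 10 to 16 weeks. Each pool gave 1 TRAP library, from the HA pulldown, and 1 INPUT library, which the labels describe as all neurons and glia (in 1 place the methods speak instead of material left unbound). The methods also state that punches could include neighbouring striatum. They add that such areas lack vGluT2 and so would not contaminate the pulldown.

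Levels are the deposited log2 CPM values, with n = 4 libraries per fraction, and a difference is TRAP minus INPUT on the log2 scale. The table holds no read totals. TRAP minus INPUT of 99.7% of low genes in VP2.2 and VP2.6 fell on ratios of whole reads, with an INPUT library of 3.02 and 1.99 times the effective TRAP size. The single libraries did not step: 1454 low genes of VP2.2 had 1454 distinct TRAP values, and 1528 low genes of VP2.6 had 1528. The values of these pools thus hold a term for each gene that both libraries of a pool share, so they are not plain scaled reads; which step made it is not given in the sources used here, and rounding hides any such term in VP1.6 and VP2.11. Differences within a pool are free of this term. The level in a single library, the spread between libraries of a fraction, overlap between fractions, the fit without the block and the permutation tests over libraries all rest on values that hold it, and its effect on them was not tested. Slc17a6, which encodes vGluT2, stood at 143 ± 13.6 CPM in TRAP and 25.9 ± 10.3 CPM in INPUT (SD, n = 4 each). Of 14249 genes tested with limma, 47.9% passed an adjusted p of 0.05 in either direction when the model held the fraction alone, and 32.2% when it also held the pool as a block. The TRAP and INPUT library of a pool stem from the same homogenate, yet where 1 lay above its fraction's mean the other tended to lie below. With such opposite deviations, the differences within pools spread more than the spread within each fraction implies, which the fit without the block does not take into account. Its standard error was the smaller for each of the 10 members, such as 0.16 against 0.26 for Vsnl1. Both fits are given, and the blocked fit, which uses the differences within pools, is by its standard error the more cautious for these members. By limma's adjusted p it was not so for Calb2 (3.3e-05 with the block, 7.7e-05 without). In bulk libraries, fewer cells that hold a message and less message per cell cannot be told apart.

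All 10 genes were over 1 CPM in every library, between 25.1 and 2406 CPM. Without the block, 5 were higher in TRAP (Calb2, Necab1, Ncald, Vsnl1 and Hpcal1), 4 were lower (Hpca, Ncs1, Pvalb and Necab2), and Calb1 did not pass. The share of all genes tested was 23.2% for TRAP higher and 24.8% for TRAP lower. With the block, 4 genes were higher and 4 lower, against 15.4% and 16.8% of all genes, and Hpcal1 no longer passed. At an adjusted p of 0.01, the same 8 genes passed in both fits, 4 higher and 4 lower. Of all genes tested, 30.5% passed that threshold without the block (15.2% higher, 15.3% lower) and 18.0% with it (8.9% higher, 9.13% lower). The TRAP and INPUT levels of 9 of the 10 genes did not overlap, 5 with TRAP higher and 4 with TRAP lower, and the same held for 47.7% of all genes tested (23.3% higher, 24.4% lower). The median difference of the 10 genes was 0.31, against -0.05 over all genes tested.

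**Figure D1:**
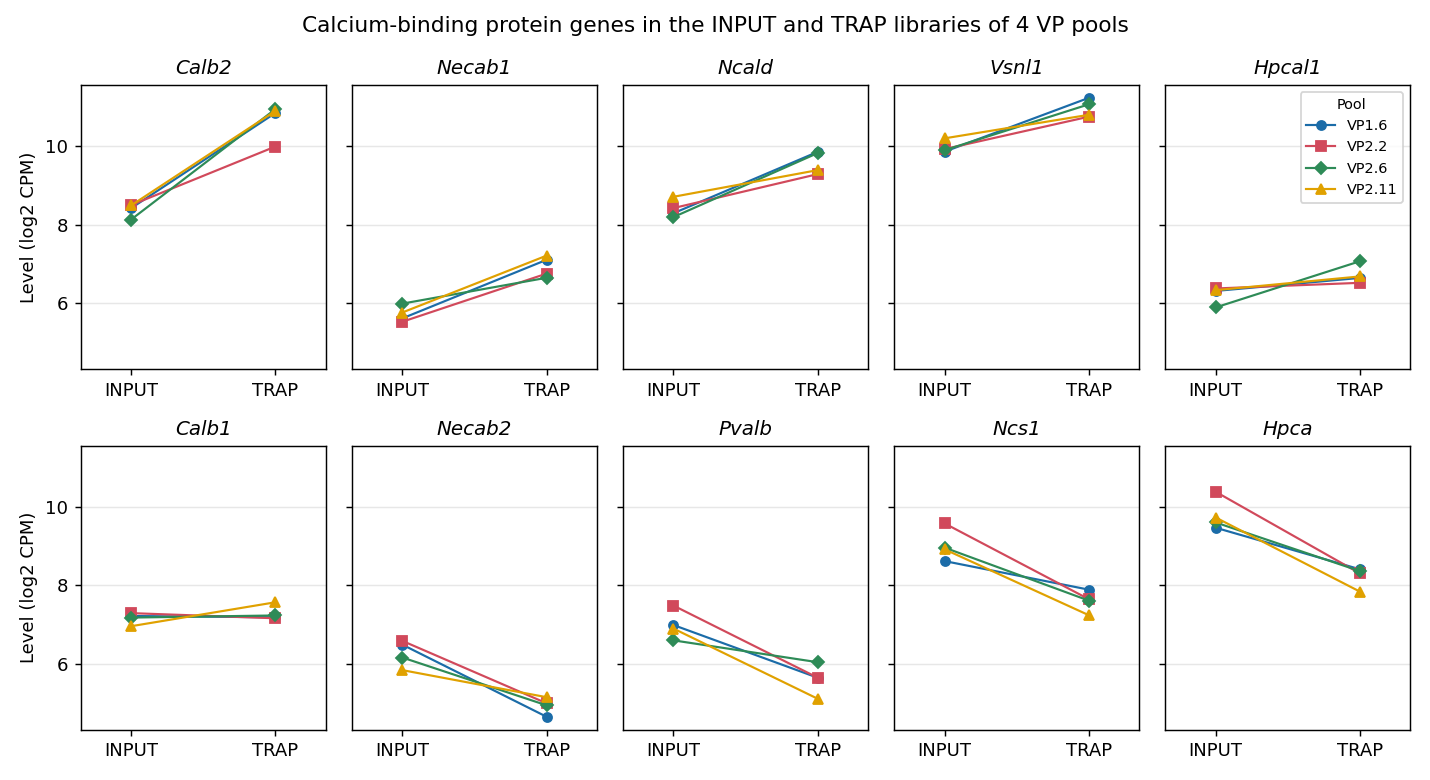
Level of each gene in log2 CPM (vertical axis) in the INPUT and TRAP library of each pool; a line joins both libraries of a pool. The lines of Calb2, Necab1, Ncald, Vsnl1 and Hpcal1 rise in all 4 pools, those of Hpca, Ncs1, Pvalb and Necab2 fall in all 4, and those of Calb1 are nearly flat in 3 pools and rise in VP2.11.

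Among the buffers, calretinin stood far above the tissue level, parvalbumin below it, and calbindin near it. Calb2 (ENSMUSG00000003657) spans bases 110137502 to 110168210 of chromosome 8 (GRCm38, as are all positions given here). Its TRAP level was 1843 CPM in VP1.6, 1018 CPM in VP2.2, 1973 CPM in VP2.6 and 1911 CPM in VP2.11. The INPUT level was 343 CPM in VP1.6, 361 CPM in VP2.2, 280 CPM in VP2.6 and 360 CPM in VP2.11. The lowest TRAP library, VP2.2, was still above every INPUT library, and the other 3 TRAP libraries lay close together. The mean was 1686 ± 448 CPM in TRAP and 336 ± 38.1 CPM in INPUT (SD, n = 4 each). The log2 fold change was 2.29, or 4.88-fold (folds are those of the mean log2 levels), with a standard error of 0.22 for the fraction-only model and 0.26 for the blocked model, and limma's adjusted p was 7.7e-05 and 3.3e-05. An exact two-sided permutation test gave p = 0.0286, the smallest that 4 libraries against 4 allow. Every gene whose fractions do not overlap reaches this p, as did 9 of the members and 47.7% of all genes tested. It therefore does not set Calb2 apart, and the test leaves out the pairing of libraries by pool. Of the 14249 genes tested, 0.505% had a higher log2 fold change than Calb2, which took rank 73.

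Calb1 (ENSMUSG00000028222), on chromosome 4 from 15881264 to 15908064, had 146 CPM in VP1.6, 143 CPM in VP2.2, 151 CPM in VP2.6 and 190 CPM in VP2.11 of TRAP. In INPUT it had 149, 157, 145 and 125 CPM in the same order of pools. The fractions overlapped, and the difference was positive in 2 pools and negative in 2, from -0.13 in VP2.2 to 0.61 in VP2.11. The log2 fold change was 0.12, with a 95% interval of -0.18 to 0.43 without the block and -0.34 to 0.59 with it (limma's adjusted p 0.47 and 0.69). A p of this size does not show that calbindin message was equal in both fractions. Its sign turned, to -0.04, without VP2.11, and to -0.03 with quantile normalization.

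Pvalb (ENSMUSG00000005716), on chromosome 15 from 78191114 to 78206400, had 50.1 CPM in both VP1.6 and VP2.2, 65.9 CPM in VP2.6 and 34.5 CPM in VP2.11 of TRAP. Its INPUT level was 127 CPM in VP1.6, 179 CPM in VP2.2, 97.0 CPM in VP2.6 and 119 CPM in VP2.11. All TRAP libraries lay below all INPUT libraries, and the gap was narrowest in VP2.6, with a difference of -0.56 against -1.34 to -1.84 in the other pools. The level was 2.61-fold lower in TRAP, a log2 fold change of -1.38 (limma's adjusted p 8.3e-04, and 8.9e-04 with the block). After the dependence of the differences on exon length was removed, it was -0.73 (adjusted p 0.025 with the block).

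Since longer genes give more reads, levels of different genes were compared as CPM per kb of exon. Per length, Calb2 made up 93.1% of the summed buffer message in TRAP VP1.6, 88.3% in VP2.2, 92.3% in VP2.6 and 93.8% in VP2.11. In INPUT its share was 56.2%, 50.3%, 56.6% and 59.5% in the same order. The lowest TRAP share lay above the highest INPUT share. Parvalbumin took 4.88% ± 1.86 of the buffer message in TRAP and 35.7% ± 4.20 in INPUT (SD, n = 4 each). For calbindin the share was 3.25% ± 0.887 in TRAP and 8.65% ± 1.39 in INPUT (SD, n = 4 each), although its own level did not pass the test. The sum of all 3 buffers was 1048 ± 260 CPM per kb in TRAP and 348 ± 52.3 CPM per kb in INPUT (SD, n = 4 each).

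**Figure D2:**
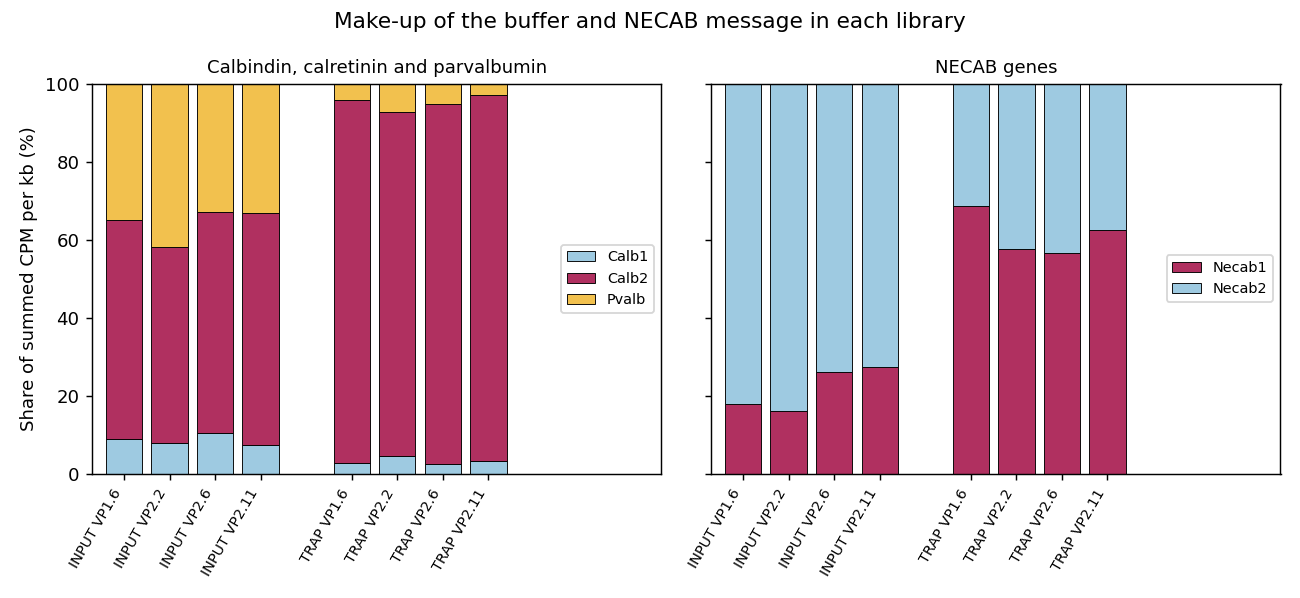
Share of each gene in the summed CPM per kb of its group (vertical axis, percent) in each of the 8 libraries, for the 3 buffers on the left and the 2 NECAB genes on the right. Calb2 fills 88.3% to 93.8% of the TRAP bars of the buffers, and the larger part of the NECAB bars passes from Necab2 in INPUT to Necab1 in TRAP.

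Of the NCS sensors, Vsnl1 and Ncald were higher in TRAP and Hpca and Ncs1 lower. Vsnl1 (ENSMUSG00000054459), on chromosome 12 from 11325242 to 11436613, encodes visinin-like protein, which moves to membranes on binding calcium and affects receptor traffic. Its TRAP levels were 2406 CPM in VP1.6, 1725 CPM in VP2.2, 2146 CPM in VP2.6 and 1783 CPM in VP2.11, and its INPUT levels ran from 929 CPM in VP1.6 to 1176 CPM in VP2.11. The fractions did not overlap, and the level rose 1.99-fold in TRAP, a log2 fold change of 0.99 (limma's adjusted p 8.6e-04 without the block and 0.0094 with the block). With the block and 1 pool left out, the adjusted p was 0.085 without VP1.6 and 0.061 without VP2.6.

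Ncald (ENSMUSG00000051359), on chromosome 15 from 37366175 to 37792570, encodes neurocalcin delta, a sensor that binds clathrin and guanylate cyclases. It had 927 CPM in VP1.6, 625 CPM in VP2.2, 907 CPM in VP2.6 and 671 CPM in VP2.11 of TRAP, against 313, 343, 293 and 419 CPM in INPUT. Every TRAP library was above every INPUT library, and the pair of pools with the higher TRAP levels also had the lower INPUT levels. The log2 fold change was 1.19, or 2.28-fold (limma's adjusted p 5.5e-04, and 0.0023 with the block). Exons of 2 noncoding genes annotated within Ncald overlap its exons by 286 and 347 bases, and neither is among the genes of the table.

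Hpcal1 (ENSMUSG00000071379), on chromosome 12 from 17690856 to 17791933, encodes a close relative of hippocalcin. Its TRAP levels were 99.9 CPM in VP1.6, 91.6 CPM in VP2.2, 134 CPM in VP2.6 and 103 CPM in VP2.11. Its INPUT levels were 79.3, 82.9, 59.3 and 80.5 CPM. TRAP was higher in all 4 pools, by 0.14 in VP2.2 and by 1.18 in VP2.6, where INPUT was low and TRAP high. The log2 fold change was 0.50, with limma's adjusted p of 0.026, and of 0.11 with the block. Without VP2.6 it was 0.28 (adjusted p 0.19 without the block), and the call was also lost without VP1.6 (0.075) and without VP2.11 (0.056).

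Hpca (ENSMUSG00000028785), on chromosome 4 from 129111570 to 129122036, encodes hippocalcin, which couples calcium to the slow afterhyperpolarization. It fell from 709 CPM in VP1.6, 1338 CPM in VP2.2, 779 CPM in VP2.6 and 849 CPM in VP2.11 of INPUT to 340, 316, 329 and 229 CPM in TRAP. The highest TRAP library was well below the lowest INPUT library, and INPUT VP2.2 stood above the other INPUT libraries. Of the members it had the largest drop, 2.97-fold, with a log2 fold change of -1.57 (limma's adjusted p 3.4e-04 without the block and 3.8e-04 with the block).

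Ncs1 (ENSMUSG00000062661), on chromosome 2 from 31245823 to 31295989, encodes the sensor that gave the family its name and acts on transmitter release and channels. It had 237, 201, 196 and 151 CPM in TRAP (VP1.6, VP2.2, VP2.6, then VP2.11) and 393, 766, 499 and 484 CPM in INPUT. As for Hpca, INPUT VP2.2 was the highest library, and the fractions did not overlap. The level was 2.68-fold lower in TRAP, a log2 fold change of -1.42 (limma's adjusted p 5.3e-04, and 6.3e-04 with the block). Without VP2.2 the log2 fold change was -1.40 for Hpca and -1.25 for Ncs1, and both stayed past the threshold with and without the block.

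The sum of the 5 sensors per length was 1331 ± 203 CPM per kb in TRAP and 1029 ± 149 CPM per kb in INPUT (SD, n = 4 each), and the ranges overlapped. Their make-up differed. Vsnl1 took 77.4% ± 1.38 of the sum in TRAP and 50.6% ± 6.37 in INPUT (SD, n = 4 each). Hpca took 6.75% to 9.32% in TRAP and 26.6% to 37.9% in INPUT.

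The NECAB genes moved in opposite directions. Necab1 (ENSMUSG00000040536), on chromosome 4 from 14952245 to 15149794, had 138, 108, 100.1 and 148 CPM in TRAP (VP1.6, VP2.2, VP2.6, then VP2.11) and 48.8, 46.0, 63.4 and 54.2 CPM in INPUT. The fractions did not overlap, and VP2.6 had both the lowest TRAP and the highest INPUT level. The log2 fold change was 1.21, or 2.31-fold (limma's adjusted p 3.4e-04, and 0.0011 with the block). Necab2 (ENSMUSG00000031837), on chromosome 8 from 119446719 to 119472640, encodes a binding partner of adenosine and metabotropic glutamate receptors. It had 25.1, 31.9, 30.8 and 35.5 CPM in TRAP and 89.9, 96.1, 71.6 and 57.3 CPM in INPUT, in the same order. It was 2.52-fold lower in TRAP, with a difference of -1.84 in VP1.6 and -0.69 in VP2.11, and a mean of -1.33 (limma's adjusted p 3.6e-04, and 9.6e-04 with the block). Per length, Necab1 made up 56.6% to 68.7% of the summed NECAB message in TRAP and 16.1% to 27.5% in INPUT, so its share was the larger in all TRAP libraries and the smaller in all INPUT libraries. An antisense gene overlaps exons of Necab1 by 410 bases and is not in the table.

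**Figure D3:**
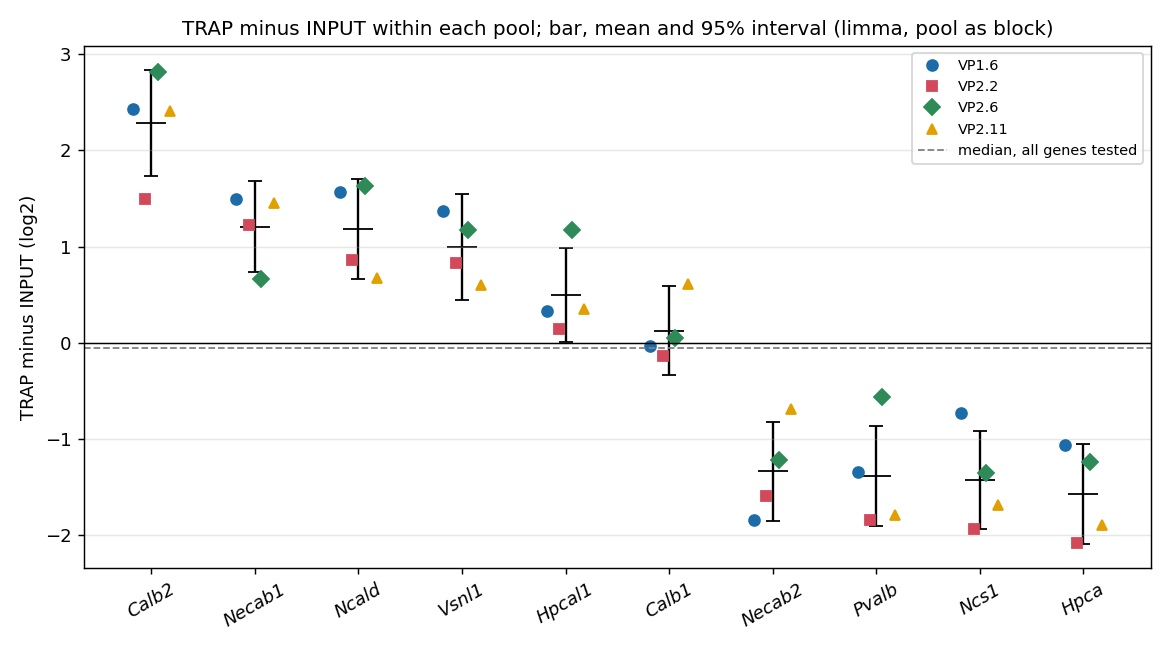
TRAP minus INPUT on the log2 scale (vertical axis) for each gene; points are the 4 pools, and the black bar is the mean with its 95% interval from limma with the pool as a block. The dashed line is the median of all genes tested, -0.05. Calb2 stands highest at 2.29, Calb1 crosses 0, and Necab2, Pvalb, Ncs1 and Hpca lie between -1.33 and -1.57.

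Calretinin was then set against each of the other 9 genes within a library, so that scaling of the library falls out. The log2 level of Calb2 minus that of the other gene was higher in TRAP than in INPUT in 4 of 4 pools for each of the 9 genes, and the TRAP and INPUT values did not overlap for any (exact two-sided permutation test, p = 0.0286 for each of 9 comparisons, the smallest possible). Calretinin had been singled out with earlier results known. Taken over the 4 paired differences, an exact sign-flip test cannot go below 0.125, which is the value all 9 comparisons gave.

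The gap was widest against the genes that were lower in TRAP. Calb2 gained 3.86 ± 0.388 over Hpca, 3.71 ± 0.497 over Ncs1, 3.67 ± 0.405 over Pvalb and 3.62 ± 0.618 over Necab2 (log2, SD, n = 4 pools). Over Calb1 it gained 2.16 ± 0.538, and over Hpcal1 1.79 ± 0.357. The gap was narrowest against the genes that also rose. Calb2 gained 1.29 ± 0.529 over Vsnl1, 1.10 ± 0.477 over Ncald and 1.08 ± 0.786 over Necab1 (log2, SD, n = 4 pools). The gain over Necab1 depended on the pool most, from 0.27 in VP2.2 to 2.16 in VP2.6. VP2.2, the pool with the low Calb2 level in TRAP, gave the smallest gain over every gene except Hpca and Ncs1, for which VP1.6 did.

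**Figure D4:**
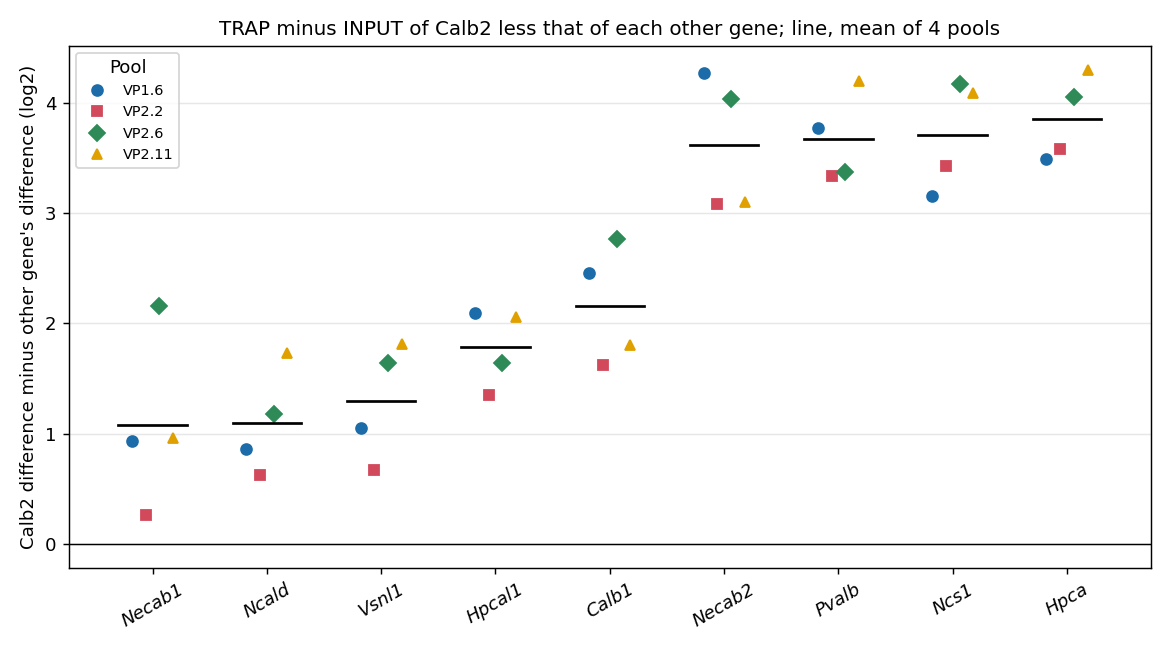
TRAP minus INPUT of Calb2 less TRAP minus INPUT of each other gene on the log2 scale (vertical axis); points are the 4 pools and lines their mean. All 36 points lie above 0, from 0.27 against Necab1 in VP2.2 to 4.30 against Hpca in VP2.11.

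The order of the genes by level per exon length also differed between the fractions. In TRAP, Vsnl1 (1030 ± 164 CPM per kb) and Calb2 (967 ± 257 CPM per kb) led (SD, n = 4 each). They could not be ordered, since Vsnl1 was the higher of them in 2 of 4 libraries. Hpca followed at 104 ± 17.3 CPM per kb, and the log2 step from Calb2 down to Hpca was 3.19 ± 0.57 (SD, n = 4). Below it came Ncald at 91.2, Hpcal1 at 63.2, Pvalb at 48.2, Ncs1 at 42.2, Calb1 at 32.5, Necab1 at 23.6 and Necab2 at 14.7 CPM per kb (means of 4 libraries). Hpca and Ncald differed by 0.19 ± 0.25 and Pvalb and Ncs1 by 0.17 ± 0.30 (log2, SD, n = 4), steps smaller than their spread, and Ncs1 and Calb1 by 0.37 ± 0.45. Hpca was above Ncald in 4 of 4 TRAP libraries, and Pvalb above Ncs1 and Ncs1 above Calb1 in 3 of 4 each.

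In INPUT the order was Vsnl1 (515 ± 58.1 CPM per kb), Hpca (314 ± 97.7), Calb2 (193 ± 21.9), Pvalb (126 ± 33.5) and Ncs1 (115 ± 34.5) (SD, n = 4 each). After them came Hpcal1 at 44.5, Ncald at 39.8, Necab2 at 37.6, Calb1 at 29.7 and Necab1 at 10.1 CPM per kb. The steps from Pvalb to Ncs1, from Hpcal1 to Ncald and from Ncald to Necab2 were smaller than their spread. Hpca held rank 2 and Calb2 rank 3 in all 4 INPUT libraries, and in TRAP Hpca held rank 3 in all 4. With the longest transcript in place of all exons, the TRAP levels of Ncald and Hpca changed places, at 7.69 and 7.34 log2 CPM per kb.

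**Figure D5:**
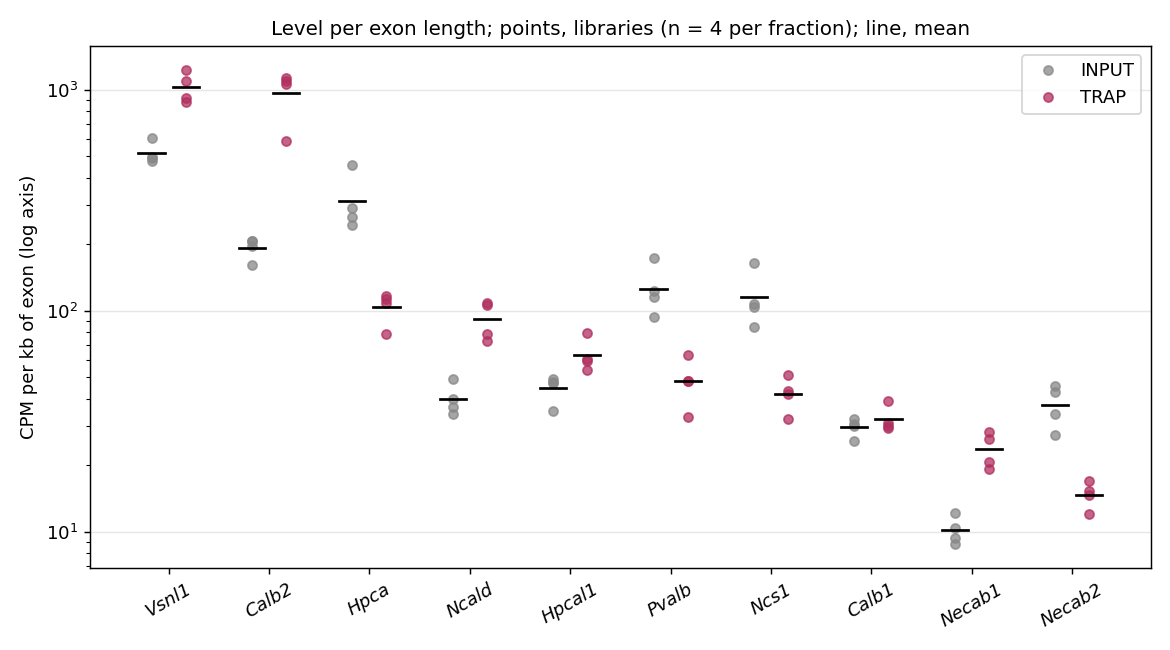
Level in CPM per kb of exon (vertical log axis) for each gene, ordered by the TRAP mean; points are the 4 libraries of a fraction and lines their means. Vsnl1 and Calb2 are the only genes over 500 CPM per kb in TRAP, and Hpca, Pvalb, Ncs1 and Necab2 have their INPUT points above their TRAP points.

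Several members lie on the same chromosome. Necab1, which was higher in TRAP, and Calb1, which did not pass, lie 0.731 Mb apart on chromosome 4. Calb2 and Necab2, with changes of opposite sign, lie 9.28 Mb apart on chromosome 8, and Vsnl1 and Hpcal1, both higher in TRAP without the block, lie 6.25 Mb apart on chromosome 12. Longer genes had higher log2 fold changes over the whole table (Spearman's rho 0.412, across genes of the same 8 libraries, which are no independent replicates). The exons of Calb2 cover 1743 bases and those of Pvalb 1041 bases, both under the median of 4274 bases, while those of Ncald cover 8581 bases. With the trend on length taken out and the pool as a block, the log2 fold change was 2.72 for Calb2, 1.37 for Vsnl1, 1.10 for Necab1, 0.95 for Hpcal1 and 0.86 for Ncald, and all passed the threshold. The lower genes also passed it in that fit, and Calb1 did not (0.06, limma's adjusted p 0.86).

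By the 4 differences within pools, the genes nearest to Calb2 among all genes tested were Plk5, Nptxr and Ebf2, at Euclidean distances of 0.507, 0.606 and 0.651 on the log2 scale. Plk5 had 29.5 CPM in TRAP and 6.31 CPM in INPUT, Nptxr, which encodes a neuronal pentraxin receptor, had 225 and 48.8 CPM, and Ebf2, which encodes a transcription factor, had 12.1 and 2.59 CPM (means of 4 libraries).

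Of 40 other EF-hand genes listed, 29 are in the table and were tested. Without the block 2 were higher and 13 lower in TRAP, against 23.2% and 24.8% of all genes tested. With the block 1 was higher and 13 lower, against 15.4% and 16.8%. Their median difference was -0.53. Necab3, the remaining NECAB gene, rose like Necab1, from 19.0 ± 3.27 CPM in INPUT to 44.9 ± 2.72 CPM in TRAP (SD, n = 4 each), a log2 fold change of 1.26 (limma's adjusted p 1.8e-04, and 0.0010 with the block). The S100 genes, several of which are known from glia, fell in 7 of 8 cases in both fits. S100a1 went from 227 ± 97.9 CPM to 12.6 ± 0.888 CPM, S100a13 from 66.3 ± 17.8 to 4.42 ± 1.10 CPM, and S100a16 from 227 ± 83.7 to 17.1 ± 5.57 CPM (INPUT to TRAP, SD, n = 4 each). S100a4 was low in both, at 1.89 ± 0.566 CPM in INPUT and 0.0422 ± 0.0211 CPM in TRAP (SD, n = 4 each).

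Kcnip2, an auxiliary subunit of A-type potassium channels, fell from 72.1 ± 4.79 to 28.8 ± 8.27 CPM, and Tesc, which encodes tescalcin, from 28.0 ± 5.27 to 9.25 ± 0.501 CPM (INPUT to TRAP, SD, n = 4 each). Sri, which encodes sorcin, had a smaller change, with a log2 fold change of -0.79 (limma's adjusted p 0.0067, and 0.021 with the block). The other NCS sensor in the table, Hpcal4, had 310 ± 37.1 CPM in TRAP and 305 ± 48.7 CPM in INPUT and did not pass (log2 fold change 0.03). Kcnip4 and Cib2 passed without the block and not with it, and Scgn, which encodes the buffer secretagogin, with the block and not without it.

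Markers of other cells moved with both groups of members. Of 8 genes of striatal projection neurons, 7 were lower in TRAP in both fits, and their summed level ran from 506 to 804 CPM in TRAP and from 1280 to 1960 CPM in INPUT. Drd1, Adora2a and Penk were among the 7, and Rgs9 was not. Of 3 GABAergic genes, Slc32a1 was lower in both fits and Gad1 and Gad2 did not pass. Their summed level ran from 918 to 1570 CPM in TRAP and from 584 to 1390 CPM in INPUT. Gad1 had 613 ± 145 CPM in TRAP and 516 ± 170 CPM in INPUT, and Gad2 had 528 ± 142 and 560 ± 184 CPM (SD, n = 4 each). Both were higher in TRAP in 1 of 4 pools, VP2.2 (Gad1 828 against 263 CPM, Gad2 730 against 298 CPM), and lower in the others. Not passing the test does not show that GABA-synthesis message was equal in both fractions. Among glial genes, 4 of 5 of astrocytes, 4 of 5 of oligodendrocytes and 4 of 5 of microglia were lower in both fits. Mag, the remaining oligodendrocyte gene, was higher without the block (log2 fold change 0.61, limma's adjusted p 0.035, and 0.072 with the block). Their sums in TRAP and INPUT were 150 to 253 and 343 to 502 CPM for astrocytes, 900 to 1630 and 3510 to 3810 CPM for oligodendrocytes, and 22.7 to 31.5 and 79.8 to 126 CPM for microglia. On the other side, 5 of 5 genes of other glutamatergic forebrain neurons were higher, with summed levels of 168 to 249 CPM in TRAP and 34.7 to 67.3 CPM in INPUT. Of 7 thalamic and habenular genes, Tcf7l2, Rora and Lhx9 were higher in both fits and Lef1 in the fit without the block, with sums of 466 to 628 CPM in TRAP and 158 to 225 CPM in INPUT. Of 5 hypothalamic genes, Otp and Sim1 were higher in both fits and Nkx2-1 was lower without the block (-0.87, limma's adjusted p 0.043, and 0.20 with the block), and their sums ran from 20.9 to 30.3 CPM in TRAP and 9.75 to 20.6 CPM in INPUT. Of 3 cholinergic genes Slc18a3 was lower in both fits, Chat was higher without the block (0.70, limma's adjusted p 0.034, and 0.066 with the block), and Slc5a7 did not pass (0.81). Of 2 endothelial genes Flt1 was higher in both fits. Levels taken from log2 values cannot be 0, so they do not show that every marker was detected in every library. Tmem119, a microglia gene, had 0.0281 CPM in TRAP VP2.6. The part of the marked cells in the levels of Calb2, Hpca and the other members was not tested.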

How the data were processed

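Reads were aligned by the authors to GRCm38 with STAR 2.5.1a, uniquely mapped ones were assigned to genes by featureCounts, and library sizes were scaled by TMM before a limma fit with voom and quality weights. The deposited values are log2 CPM per gene and library, and in VP2.2 and VP2.6 they are not plain scaled reads, since each gene carries a shift that its TRAP and INPUT values have in common; both VP2.11 libraries and the INPUT library of VP1.6 carry only 3 significant digits. The table also holds the authors' own comparison (fold changes, limits and p-values), which was not used. Of 14398 entries, 45 repeated ones were left out, leaving 14353 genes. No read counts per gene were used, so no count test was run; in VP2.2 and VP2.6, 99.7% of low genes (1454 and 1528 genes) had a TRAP minus INPUT difference on whole-read steps within a pool, against 2.02% and 2.51% with a wrong size ratio. How the counting treated strand is not given in the sources used here.

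The 14249 genes that exceeded 1 CPM in 3 or more libraries were compared with limma 3.58.1 in R 4.3.3 (lmFit, eBayes with a trend; Benjamini-Hochberg over all genes, threshold 0.05), with the fraction alone and, as the paired alternative, with the pool as a replicate block. Both models were run on simulated data in which libraries varied independently. Those runs held no opposite deviations within pools, so they cannot show how either model handles them. TRAP and INPUT libraries were paired by pool, as labelled, since they were made from the same homogenate; deviations from fraction means correlated at -0.745 to -0.495 within pools and 0.0457 to 0.441 between pools. Exon lengths and positions came from GENCODE release M21 (GRCm38). Differences of Calb2 from other genes were tested over libraries with exact permutation tests. All 10 members are named; of the other EF-hand genes, those past the threshold in both fits with the 4 largest and 4 smallest changes; and the 3 genes nearest to Calb2. Hpcal4, Kcnip4, Cib2 and Scgn, outside that rule, were named after their values were seen. The members and lists were chosen with earlier results of these data known.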

Additional observations from a re-analysis of the deposited data

Results flagged for a closer look

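The levels of the 10 genes in TRAP and in INPUT and their differences within pools gave 30 groups of 4 values, and in each the gap of the highest or lowest value to its neighbour was set against the range. By chance about 1.5 groups would pass Dixon's limit, and 2 passed it. The TRAP level of Calb2 in VP2.2 was low, at 9.99 on the log2 scale against 10.85 to 10.95 in the other TRAP libraries, and without that pool the log2 fold change of Calb2 was 2.55. The INPUT level of Hpcal1 in VP2.6 was low, at 5.89 against 6.31 to 6.37 in the other INPUT libraries, and that pool gave the largest difference of Hpcal1.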

How the results depend on the processing

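The number of members past the threshold was 9, and 8 with the pool as a replicate block. It was 7 to 9 under all other alternatives, including fits added after seeing the data that left out 1 pool with the block. In 15 alternatives each, Calb2, Ncald, Necab1, Hpca, Ncs1, Pvalb and Necab2 kept their direction and stayed past the threshold. Log2 fold changes ran from 2.05 to 2.72 for Calb2, 0.86 to 1.44 for Ncald, 1.02 to 1.39 for Necab1, -1.74 to -1.29 for Hpca, -1.65 to -1.21 for Ncs1, -1.66 to -0.73 for Pvalb and -1.55 to -0.997 for Necab2. Vsnl1 passed in 13 of 15 and Hpcal1 in 7 of 15 (0.28 to 0.95). Calb1 passed in none, and its sign turned with quantile normalization (-0.0324) and without VP2.11 (-0.037, with and without the block); the cause was not tested. Among the other EF-hand genes 15 passed, and 12 to 17 under the alternatives. The gains of Calb2 over the other 9 genes were positive under every alternative run, with 0.72 over Necab1 the smallest; with 3 pools the exact test cannot go below 0.10. By level per length in TRAP, Calb2 ranked 2, and it ranked 1 with the longest transcript; with 1 pool left out it ranked 1 to 2. Quantile normalization shifted the median of all genes by 0.09. Read depth of VP1.6 and VP2.11 is unknown, and precision is limited by 4 pools. The library weights that limma estimated for 1 of the alternatives ran from 0.226 in TRAP VP2.11 and 0.336 in INPUT VP2.2 to 5.66 in INPUT VP2.6, where a low weight means values further from the fraction's mean.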

Other observations

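Scgn, which encodes the calcium buffer secretagogin, had 5.39, 5.57 and 5.80 CPM in TRAP of VP1.6, VP2.2 and VP2.6 and 0.483 CPM in VP2.11, against 7.95 to 8.94 CPM in INPUT.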
